A study of Mus musculus with 3 samples.

Results

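The 33 genes described here carry glycolysis and the wider response to low oxygen, and were taken by symbol from the 27998 genes of the count matrices. Of these, 19 form a glycolysis list, from glucose uptake to lactate export, and 14 form a list of targets of hypoxia-inducible factor (HIF) that act outside glycolysis. Messenger RNA was counted in single myeloid cells, sorted from mice with B16F10 melanoma under the skin, in 3 libraries with 1 library per group. B16F10 is a transplantable mouse melanoma line. Control blood and control tumor came from C57BL/6J mice labelled WT, and the third library came from a tumor of C57BL/6J mice labelled FoxP3 DTR with the treatment treg-depleted. FoxP3 DTR mice carry the diphtheria toxin receptor under Foxp3, the gene that defines regulatory T (Treg) cells, so toxin can remove those cells. The labels give no number of animals, pooling, age, sex, toxin dose or time, and genotype and depletion cannot be told apart. Sorted cells were positive for CD45 and for CD11b or CD11c, and negative for CD90, NK1.1, Ly6G, B220 and SigF. Tumors were digested with enzymes and blood had its red cells lysed, so tissue and handling cannot be told apart.

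Glycolysis splits glucose into pyruvate, and cells short of oxygen pass the pyruvate on to lactate, which is exported. HIF is a pair of proteins whose alpha subunit is hydroxylated by oxygen-dependent prolyl hydroxylases and then destroyed. When oxygen falls the subunit persists, enters the nucleus and raises transcription of glucose transporters, glycolytic enzymes, mitophagy receptors and its own hydroxylases. In myeloid cells HIF also answers to inflammatory signals, and monocytes and macrophages rely on glycolysis when activated.

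Filters kept 5550 cells of control blood, 4443 of the control tumor and 4434 of the Treg-depleted one, and the median cell held 3550, 6452 and 3820 counted molecules (UMIs). Cells were assigned by marker genes, and 4820, 3785 and 3989 of them belonged to the monocyte-to-macrophage lineage. Within it, 2929, 903 and 1471 cells passed the monocyte gate (Ly6c2, Ccr2 and other classical monocyte genes), and 71, 2342 and 1391 passed the macrophage gate (C1qa, Apoe and others). The gate held different cells in different libraries. By clustering, 71.0% of monocyte-gated blood cells fell into cluster 0, 55.7% of those in the control tumor into cluster 6, and 36.6% of those in the Treg-depleted tumor into cluster 2. That cluster 2 also held 34.4% of the macrophage-gated cells of the same library, so the whole lineage is given beside the gated classes. The Treg-depleted library stood apart from the control tumor in general myeloid genes. Lyz2 (lysozyme) was at 39920, 12590 and 3756 counts per 1000000 UMIs (CPM) of the lineage in blood, control and depleted tumor. C1qa, a complement gene of macrophages, was at 9.12, 1957 and 283 CPM. All 6 melanoma genes together were at 0.057, 13.996 and 7.17 CPM, and Cd3e, which defines T cells, had 0 UMIs in the lineage of every library. The 5 T cell genes found had 22, 11 and 3 UMIs there together. Foxp3 cannot check the depletion here, since T cells carry CD90 and the sort left them out. Between 27 and 36 barcodes were shared by each pair of libraries. Brackets below hold 95% intervals that cover counting error only, and no p-value is given because each group has 1 library. Where 3 values stand in a row, they run from control blood over the control tumor to the Treg-depleted one. A gene is called higher or lower from a 2-fold difference, if either class held at least 20 of its UMIs.

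In monocyte-gated cells, glycolysis genes were as a group higher in the control tumor than in blood, and the list summed to 3344 CPM in blood, 7125 in control and 8434 in Treg-depleted tumor. HIF targets outside glycolysis summed to 618, 1476 and 3989 CPM in the same order. Tumor over blood, 10 of the 19 glycolysis genes were at least 2-fold higher and 2 were lower, and of all 9888 genes measured, 10.5% were higher and 29.1% lower. Of the HIF targets, 6 of the 13 measured were higher and 2 lower. The median log2 difference was 1.04 for glycolysis and 0.95 for HIF targets, against -0.48 for all genes. Adm, with 3 UMIs in blood and 1 in the control tumor, was the member not measured. Without replicates these differences have no check against the spread between animals. Gates set after thinning cells to 1000 UMIs left Slc2a3, Gapdh and P4ha1 inside 2-fold (log2 -0.73, 0.95 and 0.77). Slc2a3, on 54 UMIs in blood and 10 in the control tumor, was also inside 2-fold (-0.85) with free RNA, described below, taken off. Blood monocytes of WT tumor-bearing mice are the background to every tumor value here.

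**Figure D1:**
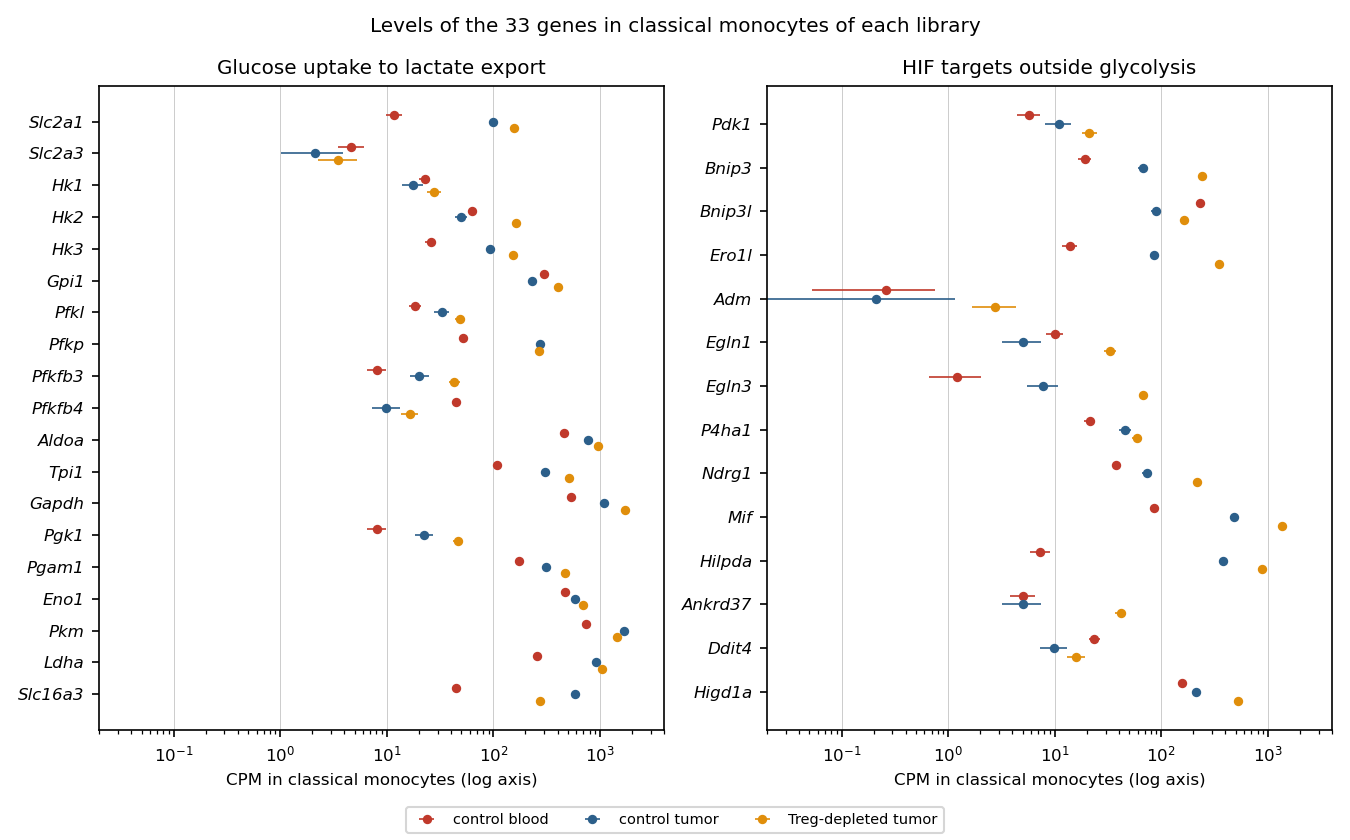
Level of each of the 33 genes in monocyte-gated cells of the 3 libraries, in CPM on a log axis with 95% counting intervals. Slc16a3 and Hilpda in control blood (44.7 and 7.34 CPM) lie far to the left of both tumors, and Egln3 and Ankrd37 in the Treg-depleted tumor (67.5 and 41.5 CPM) lie far to the right of the other libraries.

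Glucose enters through transporters. Slc2a1, the transporter GLUT1, was at 11.7 CPM in blood monocytes, 100.0 in control and 158 in Treg-depleted tumor. Both tumor libraries were above blood, and the control tumor by 8.58-fold (log2 3.10, 2.82 to 3.39). Slc2a3, the high-affinity transporter GLUT3, was scarce, at 4.66, 2.11 and 3.51 CPM. It made up 28.6% (22.3 to 35.6) of the UMIs of this pair in blood, 2.06% in control and 2.18% in Treg-depleted tumor. Counts of different genes depend on how well each 3′ end is captured, so such shares are read between libraries and not as a ranking of the genes.

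Hexokinases trap glucose as glucose phosphate, and the 3 forms had different orders across the libraries. Hk1 stayed within 2-fold, at 22.6, 17.5 and 27.8 CPM. Hk2, the form most often linked to HIF, was at 63.4 CPM in blood, 49.5 in control and 162 in Treg-depleted tumor. It was thus slightly lower in the control tumor than in blood (log2 -0.36, -0.58 to -0.14), and 3.27-fold higher in the Treg-depleted than in the control tumor (log2 1.71, 1.51 to 1.92). Hk3, a form found in myeloid cells, was at 25.9, 93.7 and 154 CPM, 3.62-fold above blood in the control tumor. Hk3 supplied 23.1% of hexokinase UMIs in blood monocytes, 58.3% in control and 44.8% in Treg-depleted tumor, while Hk2 supplied 56.7%, 30.8% and 47.1%. In macrophage-gated cells the share of Hk2 was 39.9% (38.6 to 41.3) in control and 57.7% (55.8 to 59.5) in Treg-depleted tumor.

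Among the early enzymes, the phosphofructokinase Pfkp was at 52.0, 275 and 268 CPM. The control tumor exceeded blood 5.29-fold (log2 2.40, 2.26 to 2.55), and the difference between the tumors was within its counting interval (log2 -0.04, -0.14 to 0.06). Its partner Pfkl, the liver form, was at 18.5, 32.8 and 48.8 CPM. The regulators of phosphofructokinase lay on opposite sides between control tumor and blood. Pfkfb3, whose enzyme mostly makes the small sugar phosphate that activates phosphofructokinase, was at 8.11, 20.2 and 43.0 CPM. Pfkfb4, a related enzyme that also breaks the activator down, was at 44.6, 9.90 and 16.4 CPM, lower in the control tumor than in blood by 4.51-fold (log2 -2.17, -2.64 to -1.74). Pfkfb4 therefore held 84.6% of the pair's UMIs in blood, 32.9% in control and 27.6% in Treg-depleted tumor. The isomerase Gpi1 was at 299, 232 and 402 CPM and aldolase (Aldoa) at 465, 776 and 963 CPM, neither 2-fold different between blood and the control tumor. Triose phosphate isomerase (Tpi1) was at 107, 307 and 516 CPM, a 2.86-fold difference between control tumor and blood.

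The late steps yield ATP. Gapdh was at 536, 1099 and 1709 CPM, Pgk1 at 8.11, 22.5 and 46.9 CPM, and the mutase Pgam1 at 173, 311 and 468 CPM. All were higher in both tumors than in blood, and Gapdh and Pgk1 passed 2-fold in the control tumor (2.05-fold and 2.78-fold), Gapdh not with gates set after thinning (log2 0.95) or when types came from clusters (0.66). Enolase (Eno1) differed little, at 470, 582 and 693 CPM. Pyruvate kinase (Pkm) was at 734, 1678 and 1445 CPM, and so was the only gene of these late steps that was not highest in the Treg-depleted tumor. Lactate dehydrogenase Ldha, which turns pyruvate into lactate, was at 256, 928 and 1039 CPM, 3.62-fold above blood in the control tumor. The lactate exporter Slc16a3 was at 44.7, 589 and 272 CPM. It had the largest tumor-over-blood difference of the 19 genes (13.2-fold, log2 3.72, 3.58 to 3.86), and was 2.16-fold lower in the Treg-depleted than in the control tumor (log2 -1.11, -1.20 to -1.03), just inside 2-fold (-0.99) with the median gene ratio as the scale. Reads of 3 members can be shared with other annotated genes, which makes their levels uncertain: 79.8% of the 90-base windows at the 3′ end of Gapdh, 53.3% for Eno1 and 47.2% for Mif also occur in another transcript.

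Among HIF targets outside glycolysis, the prolyl hydroxylases are the oxygen sensors that mark HIF for destruction and are themselves induced by it. Egln3 was at 1.21 CPM in blood monocytes, 7.79 in control and 67.5 in Treg-depleted tumor, from 14, 37 and 462 UMIs. The tumors differed 8.66-fold (log2 3.12, 2.63 to 3.64). Egln1 was at 10.0, 5.05 and 33.02 CPM, so it was lower in the control tumor than in blood (log2 -0.99, -1.69 to -0.34) and 6.53-fold higher in the Treg-depleted than in the control tumor. Egln3 made up 10.8% of the UMIs of this pair in blood, 60.7% in control and 67.2% in Treg-depleted tumor.

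Bnip3 and Bnip3l encode mitophagy receptors that remove mitochondria. Bnip3 was at 19.2, 67.8 and 239 CPM, whereas Bnip3l was at 231, 88.6 and 163 CPM. Bnip3 thus provided 7.65% (6.71 to 8.68) of their UMIs in blood, 43.3% in control and 59.5% in Treg-depleted tumor. Pdk1, the kinase that keeps pyruvate out of mitochondria, was at 5.70, 11.0 and 21.2 CPM. Higd1a, a mitochondrial protein that acts on the respiratory chain, was at 156, 213 and 527 CPM. All but Bnip3l were highest in the Treg-depleted tumor and lowest in blood.

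Hilpda, which keeps fat in lipid droplets by inhibiting a lipase, showed the largest tumor-over-blood difference of all members. It was at 7.34 CPM in blood, 376 in control and 888 in Treg-depleted tumor, and control tumor and blood differed 51.3-fold (log2 5.68, 5.37 to 6.01). Ero1l, the oxidase that forms disulfide bonds in the endoplasmic reticulum, was at 13.9, 86.3 and 352 CPM. The cytokine Mif was at 85.4, 486 and 1361 CPM. P4ha1, a subunit of the enzyme that hydroxylates collagen, was at 21.2, 45.7 and 59.3 CPM, and Ndrg1, a stress-induced gene, at 37.9, 73.3 and 219 CPM. Each of these 5 genes had the order blood, control tumor, Treg-depleted tumor from low to high. Ankrd37 did not: it was at 5.01, 5.05 and 41.5 CPM, equal within counting error in blood and the control tumor and 8.21-fold higher in the Treg-depleted than in the control tumor (log2 3.04, 2.44 to 3.70). Ddit4, an inhibitor of the growth kinase mTORC1, was highest in blood, at 23.6, 9.90 and 15.9 CPM. Adm, the vasodilator peptide adrenomedullin, had 3, 1 and 19 UMIs.

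**Figure D2:**
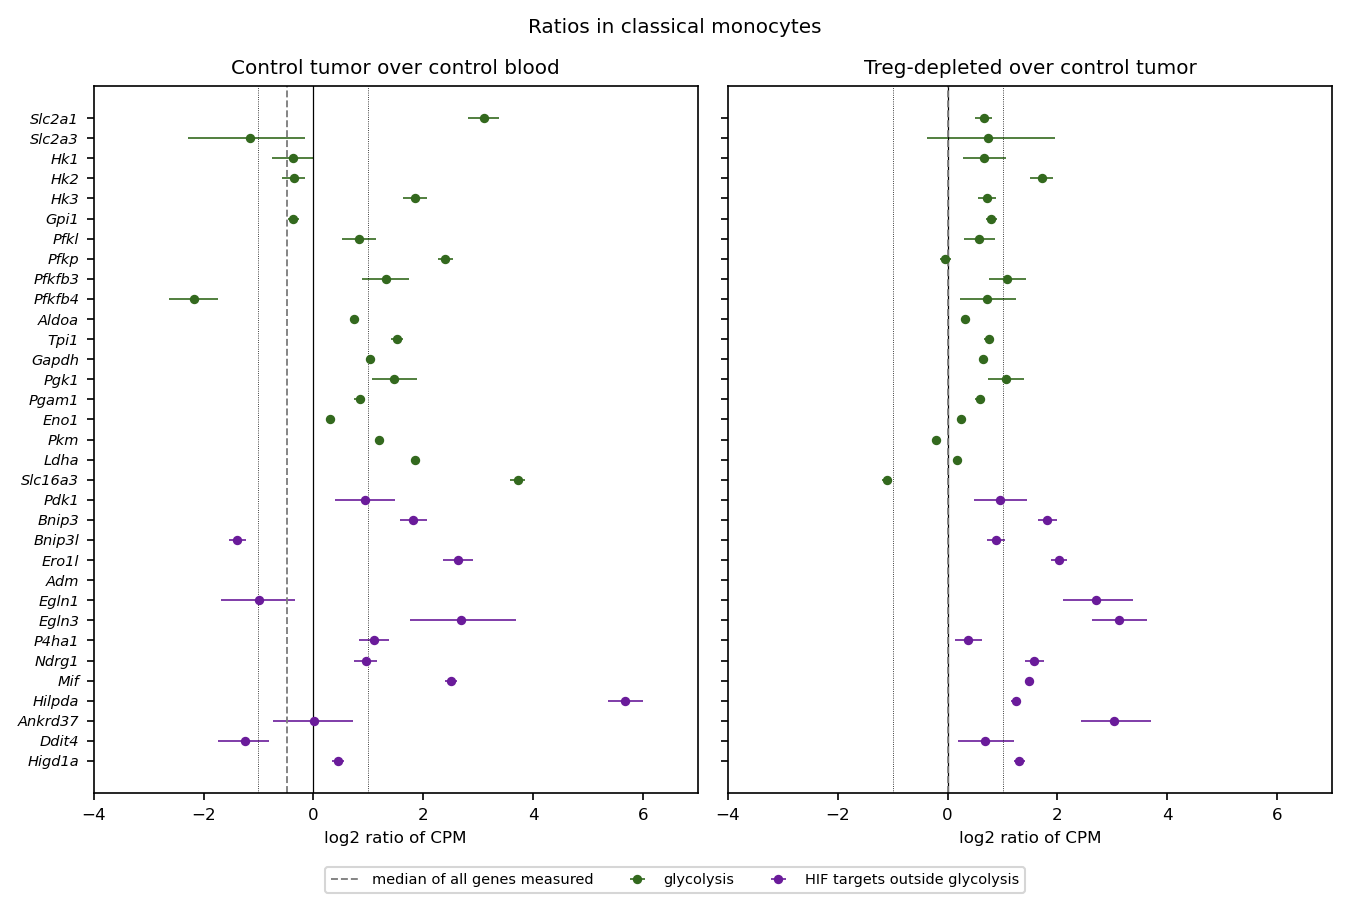
Log2 ratio of each gene with its 95% counting interval, for control tumor over control blood (left) and Treg-depleted over control tumor (right) in monocyte-gated cells; dotted lines mark 2-fold and the dashed line the median of all genes. Slc16a3 lies at 3.72 on the left and at -1.11 on the right, and Egln3 at 2.69 and 3.12; both panels use the control tumor, and Adm is left out for low counts.

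Between the tumors, more of the HIF targets outside glycolysis than of the glycolysis genes were 2-fold apart. Over the whole lineage, 7 of 14 HIF targets were at least 2-fold higher in the Treg-depleted tumor and none was 2-fold lower, whereas 2 of 19 glycolysis genes were higher and none was lower. Of all 11002 genes measured there, 7.62% were higher and 8.22% lower. The median log2 difference was 1.02 for HIF targets, 0.41 for glycolysis and -0.06 for all genes. In monocyte-gated cells, 9 of the 13 HIF targets measured were higher and none lower, against 3 glycolysis genes higher and 1 lower of 19. There, 10.5% of 8687 genes were higher and 5.04% lower, and the medians were 1.49, 0.66 and 0.01. Gates set after thinning left Pgk1 and Hilpda inside 2-fold there (log2 0.64 and 0.91), and Ndrg1 over the lineage (0.96). In macrophage-gated cells, a comparison added after the data were seen, the counts were 6 of 14 and 1 of 19, with 8.74% of genes higher and 9.72% lower, and medians of 0.92, 0.29 and -0.03. These comparisons with the control tumor, and that of the control tumor with blood, share the control tumor library, so they are not independent of each other.

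The genes with the largest difference between tumors over the lineage were Egln3 (9.16 CPM in the control tumor, 64.8 in the Treg-depleted tumor, log2 2.82, 2.63 to 3.01), Ankrd37 (11.9 and 47.4 CPM, log2 1.99) and Egln1 (12.1 and 43.9 CPM, log2 1.86). Ero1l followed at 103 and 354 CPM and Bnip3 at 102 and 280 CPM. Hk2 was the glycolysis gene that differed most, at 77.6 and 205 CPM (log2 1.40, 1.32 to 1.47), and the other one past 2-fold was Slc2a3 (2.13 and 4.34 CPM), on 67 and 75 UMIs and at 0.85 to 0.95 (log2) under 4 alternatives. Mif at 789 and 1551 CPM and Hilpda at 481 and 887 CPM stayed just under 2-fold. Several abundant enzymes hardly differed. Eno1 was at 606 CPM in both tumors, Ldha at 1092 and 1028 CPM, Pkm at 1479 and 1299 CPM and Aldoa at 1038 and 896 CPM. The last 3 were thus slightly lower in the Treg-depleted tumor, with intervals that excluded 0.

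Free RNA was measured in barcodes with 10 to 100 UMIs. In them the HIF targets summed to 775, 2068 and 4949 CPM and the glycolysis genes to 3738, 7077 and 7742 CPM, close to the lineage values of 653, 2105 and 4326 CPM and of 3219, 7796 and 8283 CPM. The share of lineage UMIs that free RNA could supply depended on the genes used to estimate it. It was 54.1% in the control tumor by melanoma genes, and in the Treg-depleted tumor 14.2% by melanoma, 1.37% by erythroid and 91.8% by stromal genes. Each estimate takes all lineage RNA of those genes as free, which was not tested. With the lowest estimate of each library taken off, the medians between the tumors were 1.27 for HIF targets and 0.30 for glycolysis, and Hk2 and Pdk1 were no longer 2-fold apart (log2 0.50 and 0.55). With melanoma genes used in both tumors, an alternative added after the data were seen, the medians were 1.24 and 0.44, and Hk2 and Pdk1 were at 0.66 and 0.56. Neutrophil genes moved with the same contrast. The list summed to 1533, 84.5 and 321 CPM in the lineage of the 3 libraries in the same order, and stromal genes to 8.49, 12.8 and 35.4 CPM. Their part in the result was not tested. Macrophage marker genes, 12100 CPM in control and 2280 in Treg-depleted tumor, also differed, and their part was not tested either.

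Macrophage-gated and monocyte-gated cells were then compared within each tumor. In the control tumor, 4 of 14 HIF targets were at least 2-fold higher in macrophage-gated cells, with 14.5% of all genes higher, and 1 of 19 glycolysis genes was lower, with 4.14% of genes lower. The 4 were Egln1 (5.05 CPM in monocyte-gated and 14.1 CPM in macrophage-gated cells), Ankrd37 (5.05 and 13.7 CPM), Ddit4 (9.90 and 23.2 CPM) and Adm (1 and 116 UMIs). The macrophage-gated class held 23668802 UMIs and the monocyte-gated class 4749064, so scarce genes such as Adm passed the filter of 20 UMIs more easily through the former. Ddit4 did not reach 2-fold with free RNA taken off (log2 0.74) or after thinning (0.82). The lower one was the lactate exporter Slc16a3, at 589 and 224 CPM. Melanoma genes, at 17.15 CPM in macrophage-gated and 1.685 CPM in monocyte-gated cells, set free RNA to 66.3% and 6.51% of their UMIs. Both classes come from 1 library and 1 pool of free RNA, so these unlike shares are assumptions and not measured contents. With these shares taken off, 6 of 18 glycolysis genes were higher and 5 lower, among them Hk2 (log2 2.06) and Ldha (-1.53). The share of all genes was not computed there. In the Treg-depleted tumor 1 member passed 2-fold, Adm, from 19 and 43 UMIs, where 3.98% of genes were higher and 2.83% lower. Slc16a3 was at 272 and 227 CPM there. With types from clusters instead of gates, Adm turned to lower in macrophages of the Treg-depleted tumor (log2 -3.40), and the HIF target median turned from 0.14 to -0.59.

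**Figure D3:**
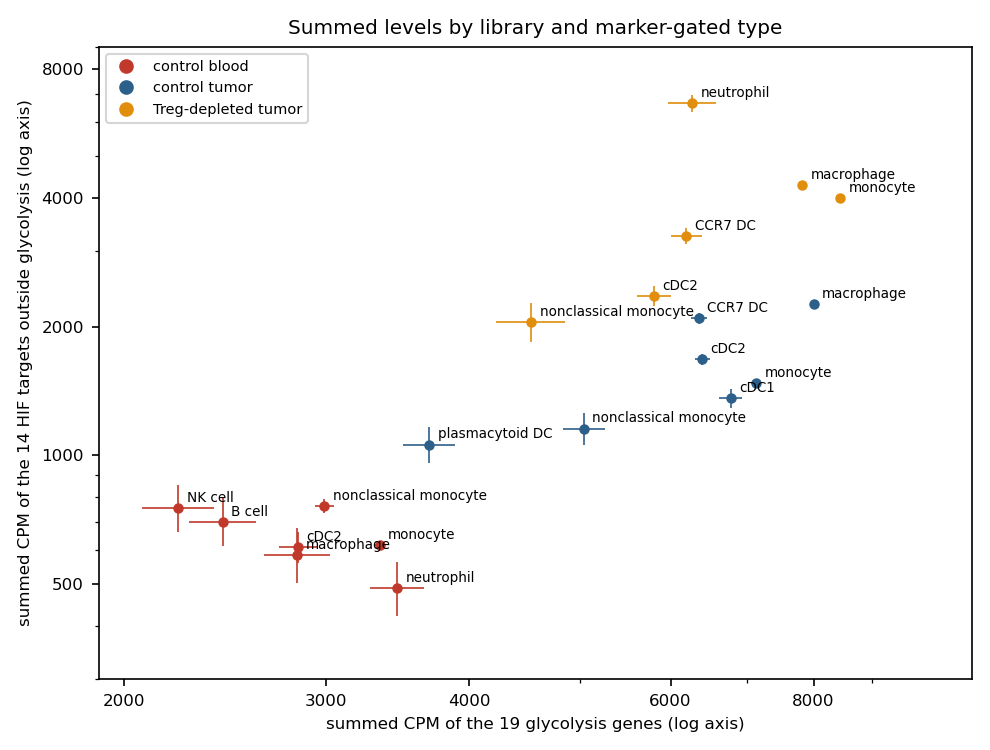
Summed CPM of the HIF targets outside glycolysis (vertical, log axis) against that of the glycolysis list (horizontal, log axis) in each gated cell type with at least 50 cells, by library, with 95% counting intervals. In the Treg-depleted tumor neutrophil-gated cells have the highest HIF target sum, 6645 CPM, and in the control tumor plasmacytoid dendritic cells have the lowest, 1060 CPM; of the 151 control tumor cells in the CCR7 gate, 112 fall into a macrophage cluster.

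Dendritic cells were gated as well, and the gates held different cells in the 2 tumors. The cDC2, conventional dendritic cells that present antigen to helper T cells, had a HIF sum of 610 CPM in gated cells of blood, 1677 in control and 2356 in Treg-depleted tumor, in 192, 231 and 90 cells. Macrophage markers summed to 4054 CPM in these cells of the control tumor and 1007 CPM in those of the Treg-depleted tumor. Cluster 7 held 145 and 66 of them, and 165 of the blood cells fell into cluster 9. In comparisons added after the data were seen, 2 of 10 HIF targets measured in cDC2-gated cells were at least 2-fold higher in the Treg-depleted tumor (4.99% of all genes), Bnip3 (log2 1.70) and Ero1l (1.10). Slc16a3 was the only one of 18 glycolysis genes that was 2-fold lower (log2 -1.09), where 8.94% of all genes were. Among the cDC2-gated cells of cluster 7, macrophage markers were at 620 and 511 CPM and the HIF sum at 1458 and 2047 CPM. There Bnip3 stayed higher (log2 1.87, 1.10 to 2.64) and Ero1l did not (0.31), as 1 of 9 HIF targets and 3.64% of all genes were. Slc16a3 was again lower (-1.48), with Hk1 on 3 and 26 UMIs and Ddit4 (-1.13), where 10.4% of all genes were. The glycolysis sum was 6396 and 5804 CPM over the cDC2 gate and 6182 and 5378 CPM within cluster 7.

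The gate for migratory dendritic cells, marked by Ccr7, held 151 cells of the control tumor, of which 112 fell into cluster 5, where most gated cells were macrophages, and 28 into cluster 16. Of its 89 cells in the Treg-depleted tumor, 78 fell into cluster 16. Over the whole gate, macrophage markers summed to 9624 CPM in control and 1798 CPM in Treg-depleted tumor, against 2529 and 3795 CPM for the gate's own markers. The gate thus held cells of different clusters in the 2 tumors. Its HIF sums were 2090 and 3252 CPM, with 5 of 13 targets higher (6.29% of all genes) and none lower (11.2%). Within cluster 16, macrophage markers were at 2278 and 1835 CPM and the gate's own markers at 8631 and 3969 CPM. The HIF sum there was 1305 CPM (1151 to 1473) in control and 3177 CPM (3031 to 3328) in Treg-depleted tumor, from 260 and 1780 UMIs. Of 11 HIF targets measured, 8 were at least 2-fold higher (26.1% of all genes), among them Bnip3 (log2 2.88, 1.80 to 4.22) and Ero1l (3.13, 1.87 to 4.78), and Ddit4 was lower (-1.17, where 9.06% of all genes were). Egln3 had 0 UMIs in the 28 control cells and 26 in the other tumor, so its ratio used a floor of 3 UMIs. The control side held 28 cells and the other side 78. A gene scarce in the control cells could thus pass the filter of 20 UMIs only through the Treg-depleted side, which favours calls of higher. Glycolysis genes summed to 4060 and 5987 CPM within the cluster, where 5 of 15 were higher. The medians within it were 1.58 for HIF targets, 0.79 for glycolysis and 0.25 for all genes. The part of the markers in these results was not tested.

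Neutrophils, which the sort was set to exclude, were few, but the 130 of the Treg-depleted tumor had a HIF sum of 6645 CPM against 489 CPM in the 158 of blood, led by Hilpda at 3145 CPM and Ero1l at 618 CPM. Free RNA of that tumor was at 4949 CPM for the list, as above. Plasmacytoid dendritic cells of the control tumor had the lowest summed tumor values, 3694 CPM for glycolysis and 1060 for HIF targets. Per cell, nonclassical monocytes of that tumor were lower in HIF targets, with a median of 0.737 per 1000 UMIs against 0.77.

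Blood held enough cells to compare the monocyte classes with each other, in a comparison added after the data were seen. Nonclassical monocytes patrol vessel walls and classical monocytes enter tissue. In 1332 nonclassical-gated against 2929 classical-gated blood monocytes, 4 of 12 HIF targets measured were at least 2-fold higher and 1 lower, and 1 of 19 glycolysis genes was higher and none lower, with 4.02% of all genes higher and 5.68% lower. Ddit4, the inhibitor of mTORC1, differed most (log2 2.34), followed by Ankrd37 (1.36), Pdk1 (1.26) and P4ha1 (1.02), and the lactate exporter Slc16a3 was the glycolysis gene (1.12). Ndrg1 was lower (-1.78). The list medians were 0.20 for HIF targets and -0.01 for glycolysis, against -0.01 for all genes. Eno3, the enolase known from muscle and no member of the lists, was at 15.5 CPM in classical and 427 CPM in nonclassical monocytes (log2 4.78, 4.56 to 5.01), so the blood classes differed in an enolase while Eno1 stayed under 2-fold. Bhlhe40, a HIF-induced repressor, was at 7.51 and 48.4 CPM.

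Cells of 1 library also differed among themselves. Across single cells of the lineage, the share of UMIs from glycolysis genes and that from HIF targets were hardly correlated in blood (Spearman rho 0.04 over 4820 cells) and correlated in both tumors (0.64 over 3785 and 0.65 over 3989 cells). After thinning every cell to 1000 UMIs the values were -0.01, 0.42 and 0.48. These describe cells that share a library, and blood had less to correlate: 51.2% of its thinned cells held no HIF target UMI, against 28.4% and 9.70% in the tumors. To see which glycolysis genes followed, cells were ranked by their HIF target share and the top quartile was set against the bottom one, which leaves the glycolysis genes out of the ranking.

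In blood, the glycolysis list summed to 3124 CPM in the bottom and 3250 CPM in the top quartile, and 0 of 19 genes were 2-fold higher, with 0.637% of all genes. In the control tumor it was 4783 and 12231 CPM, with 10 of 18 genes higher and 4.75% of all genes. In the Treg-depleted tumor it was 4896 and 12498 CPM, with 13 of 19 genes higher and 6.32% of all genes. None was 2-fold lower in any library, where 0.33%, 3.01% and 9.81% of all genes were. The genes that differed ran from glucose uptake to lactate. In the control tumor Tpi1 differed most (log2 2.50), then Pfkl (2.05), Pgk1 (1.99), Aldoa (1.82) and Gapdh (1.65). In the Treg-depleted tumor Tpi1 (2.27), Gpi1 (2.21), Slc2a3 (2.18), Slc2a1 (1.96) and Ldha (1.81) led. Pfkp did not follow in either tumor (log2 -0.07 and 0.03), nor did Pfkfb4 (-0.11 and 0.11), and Hk3 differed little (0.45 and -0.19). Slc16a3 was at 0.07 in the control and 0.77 in the Treg-depleted tumor. So Pfkp and Slc16a3, which stood out between control tumor and blood in monocyte-gated cells, did not go with HIF targets across lineage cells of the control tumor. The lineage mixes classes, however. Macrophage-gated cells of that tumor had a median of 1.77 HIF target UMIs per 1000, against 0.823 in monocyte-gated cells, and less Slc16a3. The part of this mix in the quartile values was not tested. Depth moved with the ranking, since the median cell held 4852.5 UMIs in the bottom and 6870 in the top quartile of the control tumor, and 4106 and 3583 in the Treg-depleted tumor. With the ranking made on thinned cells, on monocyte-gated cells alone, or without Mif and Hilpda, the median over the list lay between 0.04 and 0.08 in blood, between 0.98 and 1.30 in the control tumor, and between 1.16 and 1.43 after Treg depletion.

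**Figure D4:**
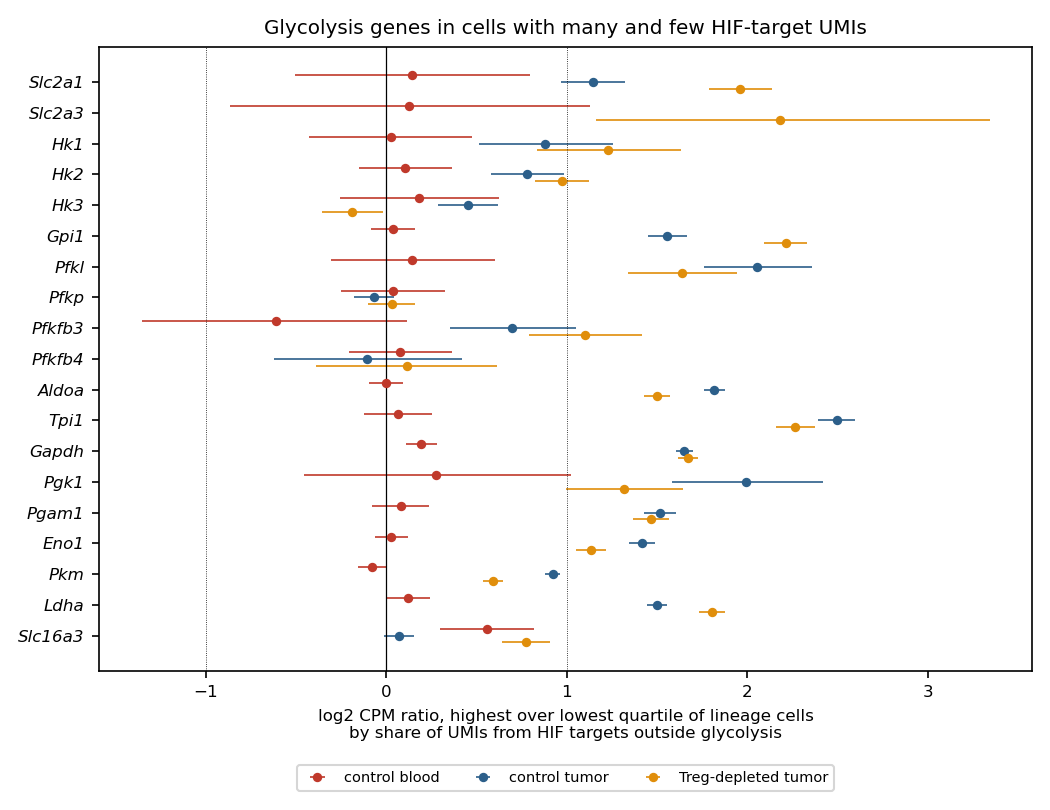
Log2 ratio of each glycolysis gene between the quartile of lineage cells with the highest and that with the lowest share of HIF target UMIs, by library, with 95% counting intervals. Most genes sit well above 0 in both tumors (Tpi1 at 2.50 and 2.27) and near 0 in blood, and Pfkp sits near 0 throughout.

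HIF binds DNA at a core that reads ACGTG or GCGTG. These letters were sought on both strands in the 250 bases before the first listed start of each gene, in RefSeq promoters of GRCm38.p6. A promoter was found for 30 of the 33 members, all but Slc2a3, Bnip3l and Ndrg1. At least 1 match was held by 23 of the 30 (76.7%), namely 13 of 18 glycolysis genes and 10 of 12 HIF targets, and by 38.6% of all 27025 promoters. At least 2 matches were held by 16 of the 30 (53.3%) and by 16.8% of all. Base composition differed as well, with a median GC content of 63.4% for members and 52.0% for all. CACGTG, which counts as 2 overlapping matches of ACGTG, was held by 2 members and by 6.05% of all promoters. Promoter stretches, cut to the part outside any exon of GENCODE M21, are printed for 4 genes that stand at the ends of the pattern just described. The mitophagy gene Bnip3 and the lactate gene Ldha have 5 matches each and were over 3-fold higher in control tumor than in blood monocytes. Pfkp has 3 but did not follow HIF targets across the quartiles of lineage cells, and Tpi1 has none and followed them most in both tumors. Of the 250 bases of Tpi1, 112 lie outside exons. Some members have more than 1 start, and the counts depend on it. At another start Hilpda and Hk1 had 3 matches and Aldoa and Pkm 1, against 0 at the first. Pdk1 had 0 against 1, and Ldha 1 against 5. A match is a description of letters and not of binding. Capitals mark the matches on either strand (CACGT and CACGC are the reverse complements), each sequence runs 5′ to 3′ on the gene's strand, and Ldha is on the plus strand and the others on the minus strand.
Bnip3, chr7:138909520-138909756: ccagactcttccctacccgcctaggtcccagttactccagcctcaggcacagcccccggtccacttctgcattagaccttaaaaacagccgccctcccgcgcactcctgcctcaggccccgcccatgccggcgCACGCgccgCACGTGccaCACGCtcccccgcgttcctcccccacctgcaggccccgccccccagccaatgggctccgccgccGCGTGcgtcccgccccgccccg
Ldha, chr7:46845554-46845803: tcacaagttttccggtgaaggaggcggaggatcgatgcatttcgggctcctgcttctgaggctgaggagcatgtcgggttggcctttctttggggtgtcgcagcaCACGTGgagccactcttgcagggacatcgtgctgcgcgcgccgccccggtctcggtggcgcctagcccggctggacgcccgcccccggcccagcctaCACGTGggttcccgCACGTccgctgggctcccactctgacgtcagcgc
Pfkp, chr13:6648778-6649021: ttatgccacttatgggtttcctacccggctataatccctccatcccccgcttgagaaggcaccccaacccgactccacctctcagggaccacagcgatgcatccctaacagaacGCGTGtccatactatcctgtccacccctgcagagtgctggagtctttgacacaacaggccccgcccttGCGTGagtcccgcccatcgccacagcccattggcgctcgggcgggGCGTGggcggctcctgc
Tpi1, chr6:124814297-124814408: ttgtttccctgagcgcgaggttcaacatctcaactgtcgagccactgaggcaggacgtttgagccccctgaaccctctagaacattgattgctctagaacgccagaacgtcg

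**Figure D5:**
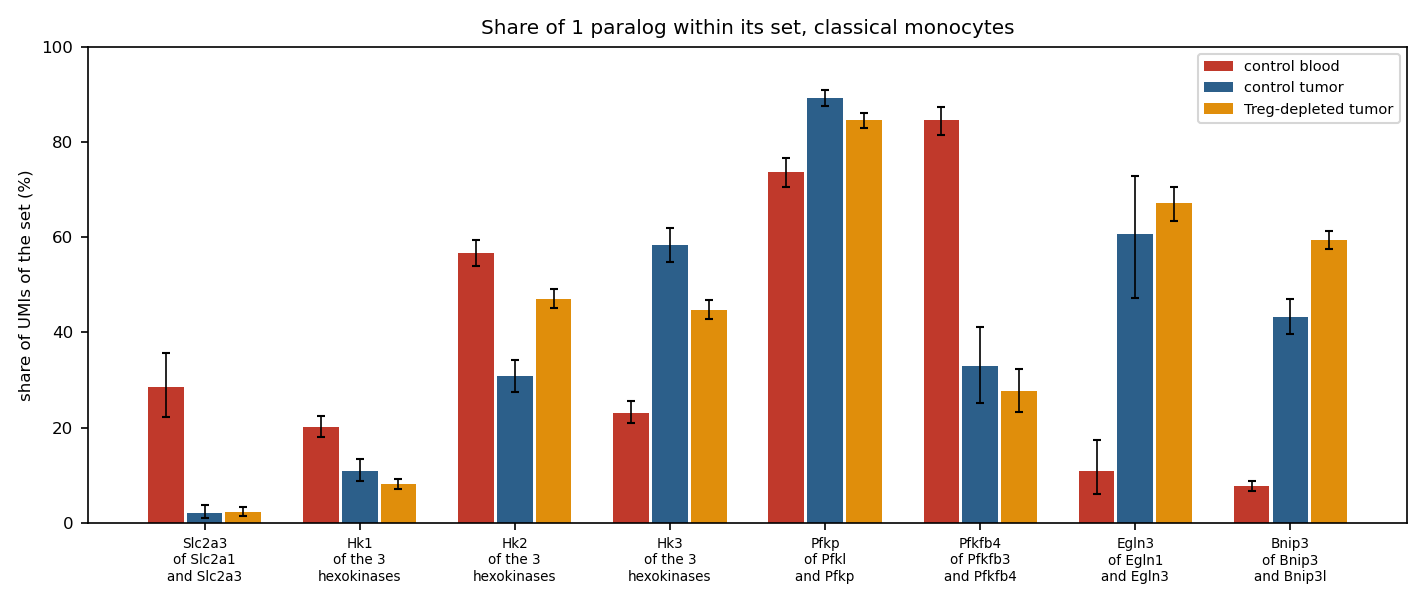
Share of UMIs held by 1 gene of each group of related genes in monocyte-gated cells of the 3 libraries, in percent with 95% Clopper-Pearson intervals. Egln3 goes from 10.8% in blood to 60.7% and 67.2% in the tumors, and Pfkfb4 from 84.6% to 32.9% and 27.6%.

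Related genes of the same pathways that are no members were compared in the same way. In monocyte-gated cells, 3 of 24 other glycolysis-side genes were at least 2-fold higher in the control tumor than in blood and 3 lower. Of the other HIF targets, 7 of 12 were higher and 1 lower. Of all genes measured there, 10.5% were higher and 29.1% lower. Vegfa, the vascular growth factor, had 1 UMI in blood and 270 in the control tumor (log2 9.36, 6.87 to 14.67). The HIF subunit Hif1a itself was at 40.8 and 243 CPM, and the lipid droplet coat Plin2 at 166 and 1063 CPM. Ldhb, the dehydrogenase form that favours pyruvate, was lower, at 57.8 and 24.2 CPM. Between the tumors, over the lineage, 3 of 14 other HIF targets were higher and none lower. Of the glycolysis-side genes, 2 of 26 were higher and 5 lower, against 7.62% and 8.22% of all genes measured. Hif1a was at 160 and 393 CPM (log2 1.30), Ak4, a mitochondrial adenylate kinase, at 2.45 and 12.8 CPM, and the glycogen synthase Gys1 at 4.10 and 14.7 CPM. Ldhb was again lower, at 14.9 and 4.34 CPM.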

How the data were processed

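Messenger RNA of sorted myeloid cells was counted in 3 libraries (10x Genomics 3′ kit), 1 per group. The matrices hold whole-number UMI counts deposited by the authors, made with Cell Ranger 1.2 on mm10 per the submitters' processing notes, and list every barcode, so cells were called anew: 1000 UMIs or more, 400 genes or more, and up to 10% of UMIs from mitochondrial genes. Library totals for control blood, control tumor and depleted tumor were 22944387, 42493416 and 23291061 UMIs, of which cells kept held 86.4%, 91.0% and 83.3%. The median cell thus misses most genes of a few CPM, so levels were taken over classes. A cell joined the lineage with a pan-myeloid marker and no other type's gate, and a class with at least 3 distinct markers and more than of any other lineage class. It joined another type with 3 of its markers at 0.1% of UMIs (1% for neutrophils). Across 17 marker lists, 117 of 121 genes were found. Of monocyte-gated cells, 16.9%, 33.0% and 26.7% led the next class by 1 marker only. No doublet caller was run; cells passing 2 other gates (26, 66 and 13) were left out. Counts were summed per class and library and divided by the class total (CPM). Intervals at 95% are exact conditional Poisson for log2 ratios and Clopper-Pearson for shares. Those for ratios were tried on simulated Poisson counts, which hold no spread between cells or libraries. PCR duplicates are collapsed by UMIs. With 1 library per group no test was made. All 33 members are named. Members and lists were chosen with earlier results of these data known. Comparisons of macrophages, dendritic cells and blood monocyte classes, gene shares within families, correlations per cell, quartiles and dendritic cells kept to 1 cluster were added after the data were seen. Clusters came from Scanpy 1.11.5 and leidenalg 0.10.2 (Leiden resolution 1), other work from NumPy 2.4.6, SciPy 1.17.1 and pandas 2.3.3. Annotation was GENCODE M21.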

Additional observations from a re-analysis of the deposited data

Results flagged for a closer look

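Within each tumor, macrophage-gated cells were set against monocyte-gated cells, and 5 of the 33 genes lay on opposite sides in the control and the Treg-depleted tumor, with counting intervals that excluded 0 in both. Each tumor is 1 library, and the difference between them was not tested. Aldoa, the aldolase, was higher in macrophage-gated cells of the control tumor (log2 0.52) and lower in those of the Treg-depleted tumor (-0.32). Eno1, enolase, lay at 0.06 and -0.50, and Ldha, lactate dehydrogenase, at 0.29 and -0.12. Of the HIF targets, the oxidase gene Ero1l lay at 0.27 and -0.21, and the lipid droplet gene Hilpda at 0.42 and -0.14. In all 5, both values are under 2-fold. The interval of Eno1 in the control tumor began at 0.001. With free RNA taken off, Ldha and Hilpda turned to at least 2-fold lower in macrophage-gated cells of the control tumor. These 2 genes then no longer lay on opposite sides. The gates separated cells less well in the Treg-depleted tumor, where cluster 2 held 36.6% of the monocyte-gated and 34.4% of the macrophage-gated cells, and the part of this in the result was not tested.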

How the results depend on the processing

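The median log2 difference of each list was recomputed under 8 alternatives planned ahead. The list medians of monocytes between tumor and blood, and of monocytes and the lineage between the tumors, kept their sign. Comparisons of macrophages and dendritic cells between the tumors, and of blood monocyte classes, were not rerun under these 8. From control blood to control tumor, the glycolysis median of 1.04 in monocytes was 1.12 with the median gene ratio as the scale, 0.95 with gates set after thinning to 1000 UMIs, and 0.75 with types from clusters, where the HIF median of 0.95 was 0.67. Between the tumors over the lineage, glycolysis (0.41) was 0.30 with free RNA subtracted and 0.29 without the top 5% of cells by UMIs, and HIF targets (1.02) were 0.94 after thinning and 1.27 with free RNA subtracted (1.24 with melanoma genes setting its share in both tumors, an alternative added after the data were seen). In monocytes, glycolysis (0.66) was 0.43 after thinning and 0.86 with clusters, and HIF targets (1.49) were 1.61 by that scale, 1.18 after thinning and 2.42 with clusters. With clusters, 9 glycolysis genes and 13 HIF targets were 2-fold higher there, against 3 and 9 with gates. The share of all genes was not computed under any of the 8 alternatives, so member counts under them cannot be set against it. Macrophages over monocytes in the control tumor, HIF targets (0.62) were 0.90 with free RNA subtracted by either estimate and 1.11 with clusters. In the Treg-depleted tumor, glycolysis (-0.02) was -0.30 with clusters, HIF targets (0.14) were 0.35 after thinning and -0.59 with clusters, and Adm (1.27) was -3.40 with clusters. Counts of glycolysis genes past 2-fold moved most with free RNA subtracted, from 2 to 4 higher between the tumors over the lineage, and in the control tumor from 0 to 6 higher and 1 to 5 lower in macrophages over monocytes. With clusters, HIF targets there went from 4 to 8 higher, and in the Treg-depleted tumor from 0 to 5 lower. Apart from CCR7-gated cells, other counts of members moved by 1 gene where they moved by over 1.5 times. In CCR7-gated dendritic cells, kept to cluster 16 in an alternative added after the data were seen, the medians between the tumors went from 0.12 to 0.79 for glycolysis and from 0.66 to 1.58 for HIF targets. Genes 2-fold higher went from 1 of 18 to 5 of 15 for glycolysis and from 5 of 13 to 8 of 11 for HIF targets. Of all genes, 6.29% and 26.1% were higher. Apart from the construction of each alternative, the cause was not tested. That scaling moved all genes by -0.09 from blood to tumor and by -0.12 between tumor monocytes. No paired analysis was possible because each group has 1 library. Genes under 20 UMIs, such as Adm in monocytes, are limited by depth.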
